A study of Rattus norvegicus with 9 samples.

Results

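The left ventricle of rats was examined for 10 genes whose products remove hydrogen peroxide and lipid peroxides or keep the removing enzymes working. They are the peroxiredoxins Prdx1, Prdx2, Prdx3, Prdx5 and Prdx6, the glutathione peroxidases Gpx1, Gpx3 and Gpx4, the thioredoxin reductase Txnrd1 and the sulfiredoxin Srxn1. They were picked by gene name, with earlier results of these data known, and all 10 were found among the 22608 genes of the tables. RNA sequencing was done on left ventricle from Sprague-Dawley rats of 8 weeks of age that then received saline, angiotensin II (Ang II), or both Ang II and sodium butyrate for 28 days, with 3 libraries in each of the 3 groups. The group with both agents is called NaBu below, so it shares Ang II with the second group. The labels name no genetic change and give no dose. Ang II constricts vessels and, given to rodents over weeks, brings on cardiac hypertrophy and fibrosis. Butyrate is a short-chain fatty acid made by gut bacteria and an inhibitor of histone deacetylases. Whether each library is a separate animal is not said in the labels, so every p-value below measures the spread between these samples, which may be technical.

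Peroxiredoxins reduce peroxides with a reactive cysteine, and most of them are then reset by thioredoxin, which thioredoxin reductase recharges with electrons from NADPH. Sulfiredoxin rescues peroxiredoxins that peroxide has overoxidised. Glutathione peroxidases draw on glutathione instead, and Gpx1, Gpx3, Gpx4 and Txnrd1 encode selenoproteins. In heart muscle, which is rich in mitochondria, the respiratory chain is a major source of the peroxide that these enzymes remove.

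Levels are given as CPM, which are counts relative to the scaled library total. They can be compared between libraries for a gene but not between genes, because transcript lengths were not used. Library totals ran from 29284780 to 49865446 estimated counts. Cardiomyocyte transcripts were present in every library, with a summed level of 127157 to 188402 CPM. Ttn, the titin gene, alone held 73252 to 97631 CPM of this sum, so it weighs most in it. Saline replicate 2 stood apart: its summed level of 10 atrial transcripts was 6039 CPM, against 111 to 361 CPM in the other 8 libraries. In the same library a list of 27 oxidative phosphorylation genes (nuclear genes of the mitochondrial respiratory chain) summed to 10795 CPM, against 13273 to 21377 CPM in the others, and 14 fibroblast transcripts to 6819 CPM, against 4133 to 5547 CPM. Some atrial transcripts were also raised in saline replicate 3, with Myl7, Bmp10 and Myl4 at 27.2, 22.2 and 17.3 CPM. In saline replicate 1 and the Ang II and NaBu libraries they were at most 3.98, 0.693 and 5.03 CPM. Sln, Nppa and Stard10 were higher there too, while Dkk3, Tbx5, Nr2f1 and Nr2f2 lay within the range of those libraries.

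Most members differed between libraries in a common order. Saline replicate 2 was the lowest of all 9 libraries for 8 of the 10 members and the highest for Gpx3. Ang II replicate 1 was the lowest Ang II library for 7 members, and NaBu replicate 6 was the highest of all 9 libraries for 8. On a log2 scale relative to the mean of the 9 libraries, the median member stood at -0.07, -0.49 and -0.05 in saline replicates 1, 2 and 3, at -0.36, -0.04 and -0.02 in Ang II replicates 1, 2 and 3, and at 0.16, 0.24 and 0.36 in NaBu replicates 2, 4 and 6. The summed oxidative phosphorylation genes, on the same scale and in the same order, stood at 0.01, -0.64 and 0.05, at -0.34, -0.02 and -0.01, and at 0.16, 0.22 and 0.35. The low saline and Ang II libraries and the raised NaBu libraries were thus the same for both. The part of mitochondrial or cardiomyocyte content in the results on the members was not tested. In whole tissue, fewer cells of a type and less RNA per cell cannot be told apart.

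**Figure D1:**
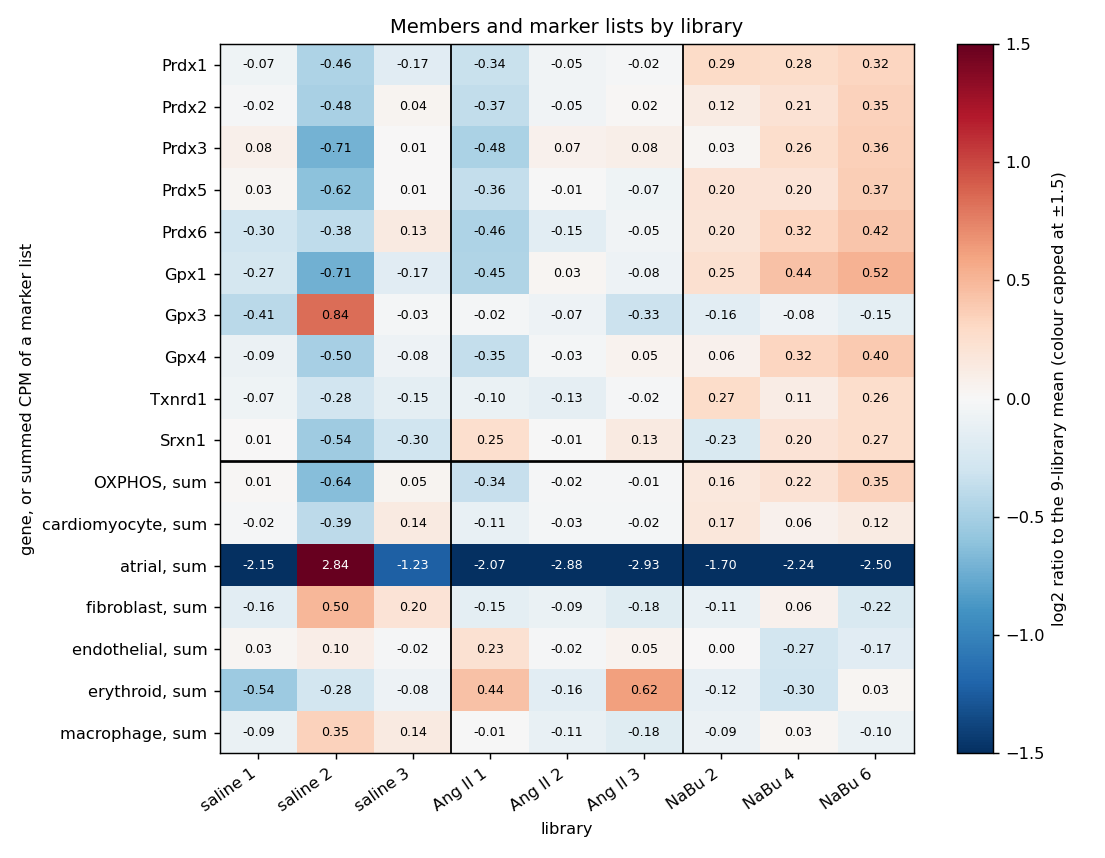
Log2 ratio of each library to the mean of the 9 libraries (columns, in 3 groups) for the 10 members (upper rows, CPM) and for the summed CPM of marker lists (lower rows, with the colour capped at 1.5 in either direction). Saline replicate 2 is low for 9 members and for the oxidative phosphorylation sum (-0.64) and high for Gpx3 (0.84) and the atrial sum (2.84).

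The first comparison asked what 28 days of Ang II did to these genes. None of the 10 members passed the test, with edgeR's quasi-likelihood test and Benjamini-Hochberg adjustment over 15467 genes. This was also the case for the whole table, where 0% of genes were called at an adjusted p under 0.05 although 918 had an unadjusted p under 0.05 (0 of the members). DESeq2 called 57 genes, with no member among them. No member separated the groups in either direction, while 4.94% of all genes were higher and 4.97% were lower in every Ang II library than in every saline library. The median member differed by a log2 fold change of 0.08, beside -0.00 over all genes, and 8 of 10 members had the higher mean with Ang II (49% of all genes).

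The peroxiredoxins lay close together in saline and Ang II. Prdx1, a cytosolic enzyme, had means of 103 ± 14.1 CPM (SD, n = 3) in saline and 110 ± 13.2 CPM (n = 3) with Ang II. Prdx2, a cytosolic peroxiredoxin that is also abundant in red blood cells, had means of 157 ± 29.4 and 159 ± 22 CPM (n = 3 each). Prdx3, the peroxiredoxin of the mitochondrial matrix, had means of 135 ± 36.7 and 143 ± 29.5 CPM (n = 3 each). The ranges of the groups overlapped for all of these. Prdx5, which is found in mitochondria, peroxisomes and cytosol, was at 61.8 ± 14.4 and 63 ± 7.97 CPM, and Prdx6, which uses glutathione rather than thioredoxin, at 92 ± 18.4 and 88.9 ± 12.7 CPM (n = 3 each). Their fitted log2 fold changes ran from -0.05 for Prdx6 to 0.10 for Prdx1.

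Among the other members, the widest differences in this comparison were those of Srxn1 and Gpx3. Srxn1, the sulfiredoxin, was at 8.52, 5.85 and 6.9 CPM in saline replicates 1, 2 and 3 and at 10.1, 8.42 and 9.29 CPM in Ang II replicates 1, 2 and 3. Its groups overlapped only through saline replicate 1 and Ang II replicate 2, and its log2 fold change of 0.39 (SE 0.191) had an edgeR adjusted p of 0.864. Gpx3, the secreted glutathione peroxidase of plasma, was at 239, 568 and 311 CPM in saline and at 312, 302 and 253 CPM with Ang II. Its log2 fold change of -0.37 (SE 0.257, edgeR adjusted p = 0.931) rested on saline replicate 2, without which it was 0.07 (SE 0.128). Gpx1, the glutathione peroxidase of cytosol and mitochondria, had a log2 fold change of 0.22 (SE 0.165), Gpx4, which reduces lipid peroxides within membranes, 0.11 (SE 0.150), and Txnrd1 0.08 (SE 0.094). Without saline replicate 2, Prdx1, Prdx2, Prdx3, Prdx5 and Gpx4 had log2 fold changes of -0.01, -0.13, -0.13, -0.16 and -0.02, the opposite sign to the values with all libraries for each of them. Prdx6 changed sign too, to 0.13, without saline replicate 3.

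**Figure D2:**
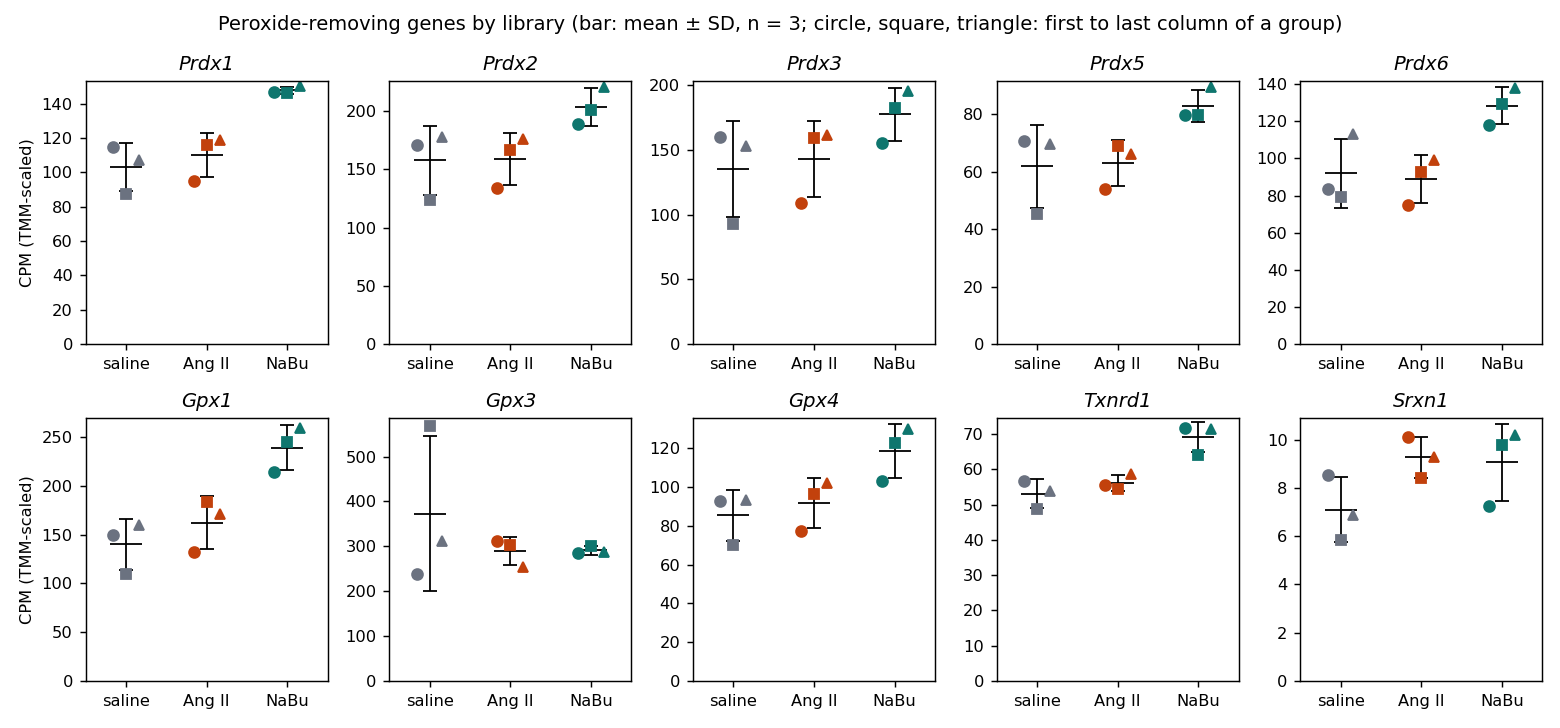
Level of each member in CPM (vertical axis from 0) in the 3 libraries of each group, with horizontal bars for the mean and whiskers for the SD (n = 3). In 7 panels the NaBu points sit above every saline and Ang II point, and the exceptions are Prdx3, Gpx3 and Srxn1.

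The second comparison asked what adding NaBu to Ang II did. Prdx1, Prdx2, Prdx5, Prdx6, Gpx1, Gpx4 and Txnrd1 were higher in every NaBu library than in every Ang II library, by 1.23-fold for Txnrd1 to 1.47-fold for Gpx1. This is 7 of 10 members, beside 18.1% of all genes higher and 17.5% lower without overlap. Of oxidative phosphorylation, cardiomyocyte and NADPH-supply genes, 19 of 27, 10 of 13 and 7 of 12 were higher without overlap, and 0, 0 and 2 lower. Of thioredoxin-related, glutathione and Nrf2-axis genes, 7 of 15, 5 of 21 and 5 of 22 were likewise higher, and 0, 2 and 4 lower. Of selenoprotein and other peroxidase genes, 4 of 19 and 1 of 4 were higher, and 1 and 0 lower. None of the 10 members passed edgeR's adjusted threshold, which 1.6% of all genes did (100 rose and 148 fell), while 7 members and 3458 of all genes had an unadjusted p under 0.05. The median member differed by a log2 fold change of 0.37, beside -0.02 over all genes, and 9 of 10 members had the higher mean with NaBu (47.3% of all genes).

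Gpx1 had the largest log2 fold change of the 10 members. It was at 132, 184 and 171 CPM in Ang II replicates 1, 2 and 3 and at 214, 245 and 259 CPM in NaBu replicates 2, 4 and 6. Each NaBu library thus lay above each Ang II library, with a log2 fold change of 0.56 (SE 0.166, edgeR adjusted p = 0.0963). Prdx6 was at 74.7, 92.7 and 99.2 CPM with Ang II and at 118, 129 and 138 CPM with NaBu, a log2 fold change of 0.53 (SE 0.154, edgeR adjusted p = 0.0943). Prdx1 was at 95.2, 116 and 119 CPM with Ang II and at 147, 146 and 150 CPM with NaBu, a log2 fold change of 0.42 (SE 0.124, edgeR adjusted p = 0.0951). The 3 NaBu libraries of Prdx1 were the closest together, relative to their level, of all 10 members, with a mean of 148 ± 2.13 CPM (n = 3).

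Txnrd1, which returns oxidised thioredoxin to use, was at 55.6, 54.3 and 58.6 CPM with Ang II and at 71.8, 64.1 and 71.3 CPM with NaBu. Its groups did not overlap, and its log2 fold change was 0.30 (SE 0.094, edgeR adjusted p = 0.109). Prdx5, Prdx2 and Gpx4 had log2 fold changes of 0.40, 0.36 and 0.37 with edgeR adjusted p-values of 0.202, 0.206 and 0.185, again without overlap of the groups. The Gpx4 groups came close, with 102 CPM in the highest Ang II library and 103 CPM in the lowest NaBu library. Prdx3 was at 109, 159 and 161 CPM with Ang II and at 155, 182 and 195 CPM with NaBu, so that NaBu replicate 2 lay among the Ang II libraries.

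Gpx3 and Srxn1 did not share the separation. Gpx3 was at 284, 301 and 287 CPM with NaBu, within the range of the Ang II libraries, with a log2 fold change of 0.01 (SE 0.257). Srxn1 was at 7.25, 9.77 and 10.2 CPM with NaBu, on both sides of the Ang II libraries, with a log2 fold change of -0.03 (SE 0.189). The sign of both was within their error and turned under some scalings or when single libraries were left out. The lowest Srxn1 library held 179 estimated counts, so its values carry more counting error than those of the other members.

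The calls in this comparison differed widely between settings of the fit, and the cause was not tested. With only the Ang II and NaBu libraries in the fit, 5 of 10 members (Prdx1, Prdx5, Prdx6, Gpx1 and Txnrd1) passed edgeR's adjusted threshold, and so did 5 with saline replicate 2 left out of the shared estimate, while DESeq2 called 4. Over all genes the calls went from 248 to 1802 with only these 2 groups and to 1521 with DESeq2. They fell to 4 with total count scaling and to 1 to 5 with any single Ang II or NaBu library left out. In these last settings 0 members were called.

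**Figure D3:**
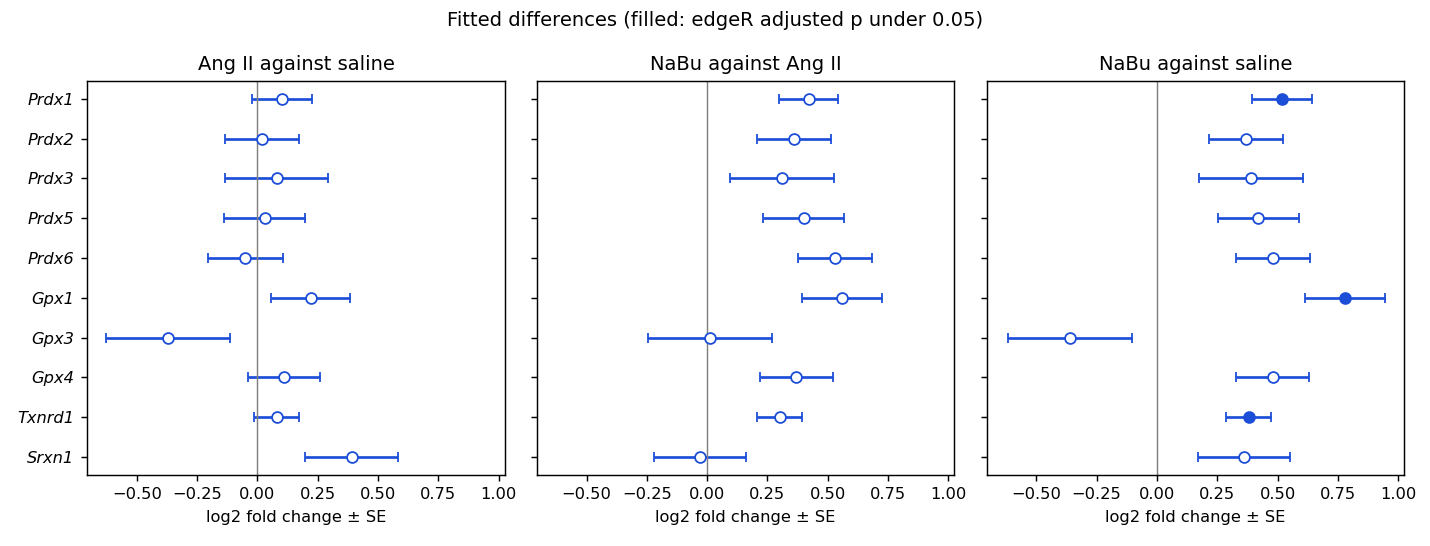
Fitted log2 fold change (horizontal axis) with its SE for the 10 members in the 3 comparisons, filled where the edgeR adjusted p was under 0.05. In the NaBu comparisons all members but Gpx3 and Srxn1 (against Ang II) or Gpx3 (against saline) lie between 0.30 and 0.78, and the filled points are Prdx1, Gpx1 and Txnrd1 against saline.

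The third comparison set NaBu, given with Ang II, against saline. It shares the NaBu libraries with the second comparison and the saline libraries with the first, so the 3 are not independent. Of the 10 members 3 rose, namely Gpx1, Prdx1 and Txnrd1, and none fell. By the same rule 5.06% of all genes were called (465 rose and 317 fell). Of the 10 members 7 were higher in every NaBu library than in every saline library, beside 14.5% of all genes higher and 14.1% lower, and they were again all members but Prdx3, Gpx3 and Srxn1. Of oxidative phosphorylation, cardiomyocyte and NADPH-supply genes, 15 of 27, 6 of 13 and 6 of 12 were higher without overlap, and 0, 0 and 2 lower. Of thioredoxin-related, glutathione and Nrf2-axis genes, 6 of 15, 4 of 21 and 4 of 22 were likewise higher, and 1, 0 and 4 lower. Of selenoprotein and other peroxidase genes, 5 of 19 and 1 of 4 were higher, and 0 and 0 lower. The median member differed by a log2 fold change of 0.41, beside -0.05 over all genes, and 9 of 10 members had the higher mean with NaBu (44.7% of all genes).

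Gpx1 was at 150, 110 and 160 CPM in saline replicates 1, 2 and 3 and thus below all NaBu libraries, which began at 214 CPM. It rose 1.71-fold, with a log2 fold change of 0.78 (SE 0.166, edgeR adjusted p = 0.0338). Prdx1 was at 115, 87.5 and 107 CPM in saline and rose 1.43-fold, with a log2 fold change of 0.52 (SE 0.124, edgeR adjusted p = 0.0426). Txnrd1 was at 56.8, 48.8 and 53.7 CPM in saline and rose 1.3-fold, with a log2 fold change of 0.38 (SE 0.094, edgeR adjusted p = 0.0472). For all of these the highest saline library lay below the lowest NaBu library. Leaving out any single library ended the Txnrd1 call, and leaving out any but saline replicate 3 or Ang II replicate 1 ended those of Gpx1 and Prdx1, with log2 fold changes of 0.64, 0.43 and 0.34 for Gpx1, Prdx1 and Txnrd1 without saline replicate 2 (edgeR adjusted p = 0.0511, 0.0723 and 0.0775). None was called with only the NaBu and saline libraries in the fit either, where 9 of all genes were called in place of 782.

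Gpx4 and Prdx6 came next. Gpx4 was at 92.9, 69.9 and 93.3 CPM in saline and at 103, 123 and 130 CPM with NaBu, a log2 fold change of 0.48 (SE 0.151, edgeR adjusted p = 0.0887). Prdx6 was at 83.7, 79.1 and 113 CPM in saline, a log2 fold change of 0.48 (SE 0.154, edgeR adjusted p = 0.0927). Both separated the groups, Prdx6 by the distance from 113 to 118 CPM. Prdx5 and Prdx2 had log2 fold changes of 0.42 and 0.37 with edgeR adjusted p-values of 0.155 and 0.168. Prdx3 had a wide spread in saline, at 160, 92.8 and 153 CPM, and its log2 fold change of 0.39 (SE 0.214) had an edgeR adjusted p of 0.289. Gpx3 had a log2 fold change of -0.36 (SE 0.257), which was 0.09 (SE 0.128) without saline replicate 2.

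In the order of the group means, NaBu was highest, Ang II next and saline lowest for Prdx1, Prdx2, Prdx3, Prdx5, Gpx1, Gpx4 and Txnrd1. In each of these genes the saline and Ang II means differed by less than the saline SD. For Prdx6 the Ang II mean was the lowest. For Gpx3 saline was highest, through saline replicate 2, and the Ang II and NaBu means were 289 ± 31.8 and 291 ± 9.16 CPM (n = 3 each). For Srxn1 the Ang II and NaBu means were 9.28 ± 0.864 and 9.07 ± 1.59 CPM (n = 3 each), with saline at 7.09 ± 1.34 CPM (n = 3).

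Marker lists for cell types and mitochondria were read beside the members. Of 27 oxidative phosphorylation genes, 27 had the higher mean with NaBu when set against Ang II, with a median log2 fold change of 0.37 (the same as the members' median) and none called. Against saline 25 of 27 were higher, with a median of 0.39, and Cox6c and Uqcrfs1, subunits of respiratory complexes, and Cycs, cytochrome c, rose. Of 13 cardiomyocyte genes 12 had the higher mean with NaBu than with Ang II, with a median of 0.41. Against saline 11 of 13 were higher, with a median of 0.33, and Pln, phospholamban, rose. Endothelial genes were lower with NaBu than with Ang II in 14 of 14, with a median of -0.24, and Egfl7, a protein secreted by endothelium, fell. Against saline 13 of 14 were lower, with a median of -0.16, and Egfl7 fell again (log2 fold change -0.56, edgeR adjusted p = 0.0149). Erythroid genes were lower with NaBu than with Ang II in 13 of 14, with a median of -0.46, and ranged in summed level from 2825 to 4838 CPM with Ang II and from 2554 to 3213 CPM with NaBu. Against saline 11 of 14 erythroid genes were higher, with a median of 0.22, and Slc4a1, the anion exchanger of red blood cells, rose (0.67, edgeR adjusted p = 0.0391). Red blood cells also express Prdx2 and Gpx1, and their part in the values of these genes was not tested. Against Ang II, fibroblast and macrophage genes were higher in 9 of 14 (median 0.16) and 7 of 13 (median 0.11), smooth muscle and lymphocyte genes in 1 of 10 (median -0.18) and 1 of 12 (median -0.46), with no call against Ang II in any of these lists or in the erythroid list. Against saline Des, the muscle intermediate filament desmin, which cardiomyocytes express too, rose in the smooth muscle list (0.65, edgeR adjusted p = 0.0425). In the atrial list Bmp10, a cardiac growth factor, fell. Its saline values were 0.42, 646 and 22.2 CPM, and no NaBu library was above 0.419 CPM. With Ang II against saline, 0 of 14 fibroblast genes (median -0.53) and 1 of 13 macrophage genes (median -0.38) were higher. With NaBu against saline these were 0 of 14 (median -0.39) and 2 of 13 (median -0.28). Erythroid, oxidative phosphorylation and cardiomyocyte genes were higher with Ang II than in saline in 13 of 14, 21 of 27 and 7 of 13 (medians 0.63, 0.04 and 0.01). The oxidative phosphorylation sums were 16986, 10795 and 17381 CPM in saline replicates 1, 2 and 3 and at most 16667 CPM with Ang II. Saline replicates 1 and 3 thus lay above every Ang II library. The fibroblast sum of saline replicate 1, 4305 CPM, lay within the Ang II range of 4243 to 4516 CPM. In that comparison edgeR called no marker gene. Of 10 adipocyte genes 4 passed the filter on low counts. Ribosomal RNA summed to 82917 to 100152 CPM with NaBu, 86587 to 120874 CPM with Ang II and 89613 to 212159 CPM in saline. Most of it was the mitochondrial ribosomal RNA mt-Rnr2, at 155452, 85359 and 176831 CPM in saline replicates 1, 2 and 3. It was at 87203, 76988 and 116962 CPM with Ang II and at 74602, 76951 and 66996 CPM with NaBu. Each NaBu library thus lay below every Ang II and saline library, the opposite direction to the oxidative phosphorylation sum, and the cause was not tested.

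The start regions of the members were read to show what sequence lies upstream of the genes that rose and of those that did not separate. Promoter windows were available in RefSeq (assembly GRCr8) for 9 of the 10 members, in 12 windows, and the 250 bases before each start were searched on both strands. The motifs were TGACNNNGC, the core of the antioxidant response element that the factor Nrf2 binds, and GGGCGG, the GC box bound by Sp1. Shown 5′ to 3′ on the gene's strand, with matches to either motif in capitals, are Gpx1, Prdx1 and Txnrd1, which rose against saline, and Prdx3, Gpx3 and Srxn1, which did not separate.
Prdx1 (chr5:135383656-135383905, plus strand): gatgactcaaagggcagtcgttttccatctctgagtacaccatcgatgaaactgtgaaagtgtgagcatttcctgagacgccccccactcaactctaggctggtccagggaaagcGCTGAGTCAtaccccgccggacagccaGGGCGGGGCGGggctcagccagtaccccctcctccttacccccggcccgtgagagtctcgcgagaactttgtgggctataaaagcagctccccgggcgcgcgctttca
Txnrd1 (chr7:22755905-22756154, minus strand): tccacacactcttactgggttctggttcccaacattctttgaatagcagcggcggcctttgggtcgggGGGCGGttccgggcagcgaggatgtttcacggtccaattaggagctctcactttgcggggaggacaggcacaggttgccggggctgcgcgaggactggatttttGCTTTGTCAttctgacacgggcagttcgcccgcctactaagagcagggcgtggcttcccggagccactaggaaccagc
Gpx1 (chr8:117905212-117905461, plus strand): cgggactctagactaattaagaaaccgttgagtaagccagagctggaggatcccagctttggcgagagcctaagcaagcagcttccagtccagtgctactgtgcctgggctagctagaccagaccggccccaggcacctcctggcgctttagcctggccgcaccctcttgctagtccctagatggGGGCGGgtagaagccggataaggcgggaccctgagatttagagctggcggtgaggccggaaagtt
Prdx3 (chr1:270000112-270000361, minus strand): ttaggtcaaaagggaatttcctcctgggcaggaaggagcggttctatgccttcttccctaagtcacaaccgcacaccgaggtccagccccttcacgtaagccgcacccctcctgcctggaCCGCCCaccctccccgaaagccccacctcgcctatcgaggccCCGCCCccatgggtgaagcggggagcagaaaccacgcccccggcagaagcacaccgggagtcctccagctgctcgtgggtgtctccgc
Gpx3 (chr10:39529085-39529334, plus strand): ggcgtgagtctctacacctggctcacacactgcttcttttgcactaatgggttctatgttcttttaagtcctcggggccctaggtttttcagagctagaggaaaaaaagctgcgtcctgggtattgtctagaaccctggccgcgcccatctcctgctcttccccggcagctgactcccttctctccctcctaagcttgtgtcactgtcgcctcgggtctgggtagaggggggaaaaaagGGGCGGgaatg
Srxn1 (chr3:161064562-161064811, plus strand): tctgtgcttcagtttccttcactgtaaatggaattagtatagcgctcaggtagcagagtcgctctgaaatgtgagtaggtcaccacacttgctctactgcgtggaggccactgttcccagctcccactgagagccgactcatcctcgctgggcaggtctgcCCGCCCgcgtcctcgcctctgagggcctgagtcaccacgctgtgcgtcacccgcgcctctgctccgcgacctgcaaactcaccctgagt

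The antioxidant response element core was found in 2 of the members' 12 windows, those of Prdx1 and Txnrd1, and in 10.1% of all 33469 promoter windows of the same length. In Prdx1 its match began 135 bases before the start, and in Txnrd1 78 bases before it, on the reverse strand in both. Txnrd1 has 2 windows, and the match lies in the one shown. The GC box was found in 10 of the members' 12 windows, from 9 members, and in 30.5% of all windows. Of the Gpx4 windows 2 overlap and hold the same 4 GC boxes, so they are not separate finds. In Prdx1 the GC box occurred in a pair of overlapping copies. A match is a description of the letters and not a bound site, and a window without one says only that these letters are not in it.

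The 10 members had 12 transcripts in the tables, with a single transcript for 8 of them. Prdx2 had a minor transcript, XM_006255244.1, which took 3.46, 4.54 and 3.43% of the Prdx2 counts in saline replicates 1, 2 and 3 and 3.95, 4.19 and 4.76% in Ang II replicates 1, 2 and 3. In NaBu replicates 2, 4 and 6 it took 5.56, 5.95 and 6.78%, above every library of both other groups. It held 158 to 721 estimated counts per library. How many minor transcripts of all genes separate the groups in this way was not counted, so there is no background to set this against. The mean shares were 3.81 ± 0.635%, 4.3 ± 0.413% and 6.1 ± 0.621% (SD, n = 3 each). Between NaBu and each other group the exact two-sided permutation p was 0.10. This is the smallest that 3 against 3 libraries allow, so the test cannot fall under 0.05. Its level was 6.89 ± 1.53 CPM with Ang II and 12.5 ± 2.29 CPM with NaBu (n = 3 each), while the main transcript was at 152 ± 20.5 and 191 ± 14 CPM (n = 3 each). The minor Gpx4 transcript took 1.52 to 3.55% of the Gpx4 counts, with exact permutation p-values of 0.40, 1.00 and 0.50 in the 3 comparisons. How reads shared between the transcripts of a gene were divided is not given in the sources used here.

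**Figure D4:**
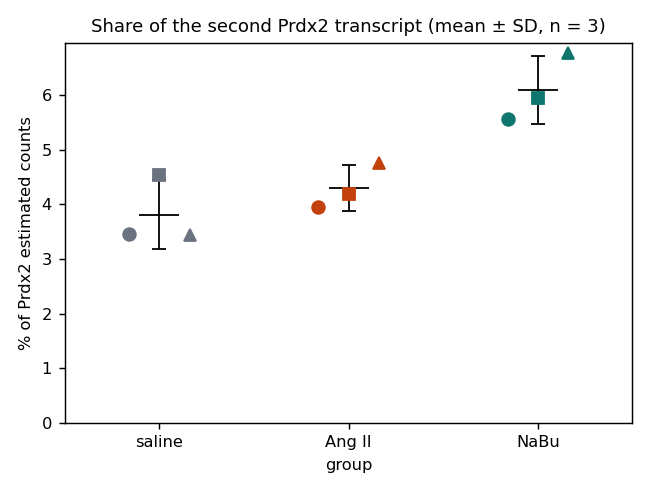
Share of the Prdx2 estimated counts (per cent, axis from 0) assigned to the minor transcript in each library, with the mean and SD of each group (n = 3). The 3 NaBu libraries lie between 5.56 and 6.78%, above the 3.43 to 4.76% of the other 6. The share of other minor transcripts that separate in this way was not counted.

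Enzymes that work beside the members were read from lists of pathway genes. Among thioredoxins, glutaredoxins and related proteins, 2 of 15 rose with NaBu against Ang II and none fell. Glrx3, a glutaredoxin that handles iron-sulfur clusters, was at 46, 50.6 and 54.6 CPM with Ang II and at 82.1, 73.1 and 79.8 CPM with NaBu, a log2 fold change of 0.64 (SE 0.113, edgeR adjusted p = 0.0423). Txndc17, a small thioredoxin-related protein, went from 10.2 ± 0.354 to 16.7 ± 1.75 CPM (n = 3 each), a log2 fold change of 0.72 (SE 0.127, edgeR adjusted p = 0.0423). In neither gene did the groups overlap, and the median over the list was 0.20. Against saline 3 of 15 rose, namely Glrx3 (log2 fold change 0.67, edgeR adjusted p = 0.0201), Txndc17 (0.60, edgeR adjusted p = 0.0338) and Sesn1, a sestrin (0.41, edgeR adjusted p = 0.0453). With total counts alone as the scale, neither Glrx3 nor Txndc17 was called against Ang II (edgeR adjusted p = 0.0642 and 0.103), and leaving out saline replicate 1 or any Ang II or NaBu library ended both calls (log2 fold changes 0.58 to 0.79). Against saline the pathway lists held 7 called genes that are not members. None of the 7 was called with only the NaBu and saline libraries in the fit, and Glrx3, Me1 and Nadk2 were still called without saline replicate 2.

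Of 12 genes that supply NADPH, the electron source of both enzyme systems, edgeR called none against Ang II, and 2 rose and 1 fell with NaBu against saline. Me1, the cytosolic malic enzyme, was at 92.1, 66.6 and 96.7 CPM in saline and at 165, 145 and 177 CPM with NaBu, a log2 fold change of 0.93 (SE 0.150, edgeR adjusted p = 0.0181). With Ang II it was at 93, 108 and 114 CPM, below all NaBu libraries (log2 fold change 0.63, edgeR adjusted p = 0.0635), and DESeq2 called this difference (adjusted p = 0.00195), as did edgeR with only these 2 groups (0.0137) and without saline replicate 2 (0.0149) or 3 (0.0474). Nadk2, the mitochondrial NAD kinase, rose from 48 ± 4.06 to 79.5 ± 5.8 CPM (n = 3 each; log2 fold change 0.73, edgeR adjusted p = 0.0228). Tkt, the transketolase of the pentose phosphate pathway, fell from 46 ± 7.48 to 32.4 ± 0.277 CPM (n = 3 each; log2 fold change -0.50, edgeR adjusted p = 0.0408). These 3 calls were lost when each gene was read from its highest transcript, where the log2 fold changes were 2.33 (SE 2.080) for Me1, 1.2 (SE 0.457) for Nadk2 and -0.0044 (SE 0.239) for Tkt. Nadk, the cytosolic NAD kinase, had a log2 fold change of -0.35 against Ang II (edgeR adjusted p = 0.145). The list's medians were 0.25 against Ang II and 0.29 against saline.

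The Nrf2 axis, a list of 22 genes that holds Prdx1, Txnrd1 and Srxn1 as well, had no edgeR call against Ang II and a median of 0.04. Against saline Prdx1 and Txnrd1 rose and Abcc1, a glutathione conjugate exporter, fell from 77 ± 5.33 to 57.1 ± 3.69 CPM (n = 3 each; log2 fold change -0.43, edgeR adjusted p = 0.0345). Hmox1, heme oxygenase 1, and Mafg, a small Maf partner of Nrf2, had the highest and lowest log2 fold changes of the list against Ang II, at 0.48 and -0.54 (edgeR adjusted p = 0.356 and 0.0895). DESeq2 called Mafg (-0.53, adjusted p = 0.0209), Prdx1 (adjusted p = 0.0186) and Txnrd1 (adjusted p = 0.0391) in that comparison, and edgeR with only the 2 groups called Mafg as well (adjusted p = 0.0377). The list's median against saline was 0.07.

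With edgeR no gene was called in any comparison in the lists of other peroxidases, of glutathione genes and of selenoproteins. For NaBu against saline DESeq2 called Cat, Gstk1 and Selt (adjusted p = 0.00163, 0.00761 and 0.0107), and edgeR called Cat with DESeq2 size factors (0.0484) and both Cat and Gstk1 with values divided by 4 (0.0437 each), and Gstk1 without saline replicate 3 (0.0154). Of 7 other peroxidases 4 were tested, and Cat, catalase, was at 265 ± 22.6, 312 ± 7.93 and 347 ± 25.5 CPM in saline, Ang II and NaBu (n = 3 each), with a log2 fold change of 0.39 between NaBu and saline (edgeR adjusted p = 0.0544). Gpx7, a glutathione peroxidase of the endoplasmic reticulum, had the lowest values of that list, -0.11 against Ang II and -0.26 against saline, and Gpx8, which lies in the same compartment, was at 0.19 against Ang II. Prdx4, a peroxiredoxin outside the members, was at 0.08 against Ang II and -0.05 against saline, and its groups overlapped in both comparisons. Of 21 genes tested for glutathione synthesis, reduction and use, the transferases Gsta4 and Mgst1 had 0.46 and -0.38 against Ang II (edgeR adjusted p = 0.193 and 0.491), and Gstk1 and Mgst1 had 0.58 and -0.27 against saline (edgeR adjusted p = 0.055 and 0.623). The glutathione list had medians of 0.05 and 0.06. Of 19 genes tested for selenoprotein synthesis and other selenoproteins, Trnau1ap and Pstk, which act on the selenocysteine transfer RNA, had 0.41 and -0.30 against Ang II (edgeR adjusted p = 0.15 and 0.129), and Selt and Selm, selenoproteins, had 0.44 and -0.26 against saline (edgeR adjusted p = 0.0656 and 0.302). The medians of this list were 0.02 and 0.03 in that order.

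With Ang II against saline, edgeR called no gene of any of these lists. Among genes that are not members and have a mean of at least 5 CPM, the log2 fold changes at the ends of the lists were 0.24 for Cat and -0.36 for Gpx8, 0.41 for Txnip, which inhibits thioredoxin, and -0.29 for Sesn2, a sestrin, and 0.21 for Gstt2 and -0.37 for Gsta4. They were 0.30 for Me1 and -0.26 for Tkt, 0.18 for Bach1, a repressor of Nrf2 targets, and -0.50 for Hmox1, and 0.32 for Sephs2, a selenophosphate synthetase, and -0.15 for Eefsec, the selenocysteine elongation factor. Their edgeR adjusted p-values ran from 0.766 to 0.961.

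**Figure D5:**
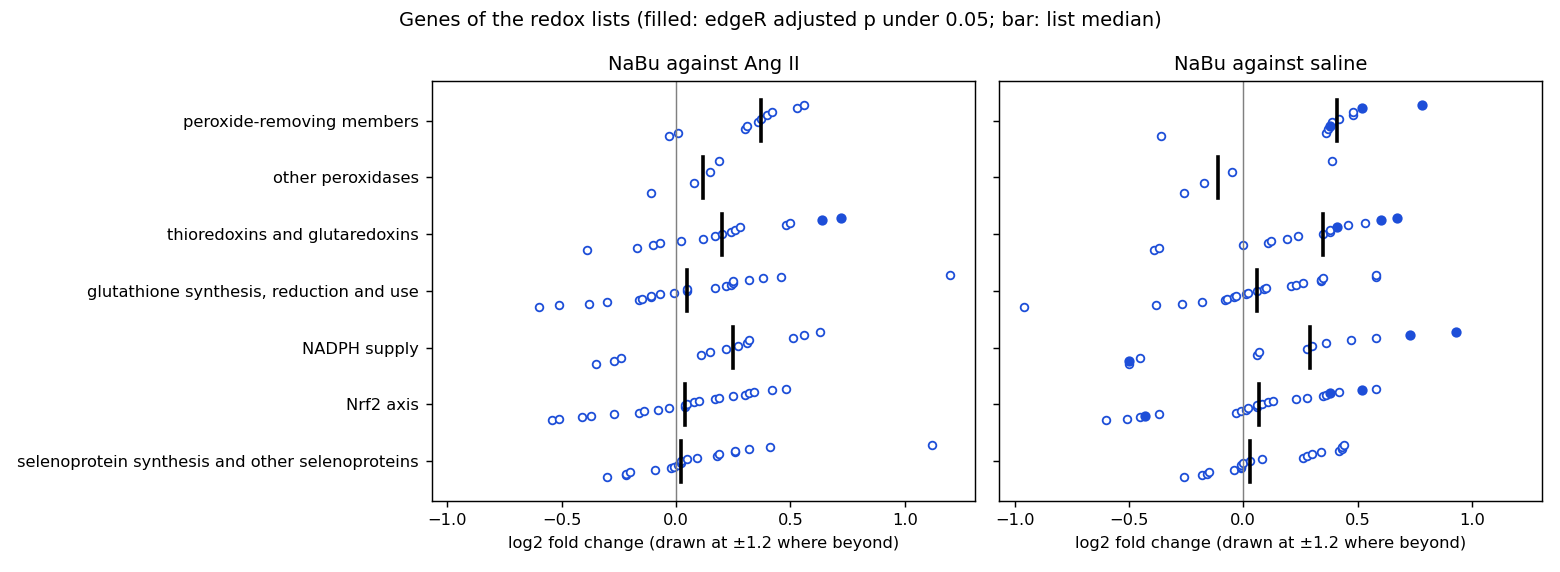
Log2 fold change (horizontal axis, drawn at 1.2 in either direction where beyond) of each tested gene of the 10 members and of 6 lists of related genes, filled where the edgeR adjusted p was under 0.05, with a bar at each list's median. The members' medians are 0.37 against Ang II and 0.41 against saline, and the filled points outside the members are Glrx3, Txndc17, Sesn1, Me1, Nadk2, Tkt and Abcc1.

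Some values of the members carry limits of annotation. In GRCr8 the annotation holds 7 pseudogenes of Prdx1, 4 of Gpx4, 3 of Prdx6 and 1 of Prdx3, by their names, none of them in the tables. Reads from such copies could be counted under the gene where the sequences are alike, which was not compared. Prdx5 overlaps Trmt112, Prdx3 overlaps LOC134485269 and Prdx6 overlaps LOC102552207. Txnrd1 overlaps Eid3, LOC108351425, LOC134479652 and LOC134479653. Without known strand use, the reads of these genes cannot be told apart where they overlap.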

How the data were processed

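Libraries were made from Trizol-extracted RNA with a TruSeq RNA kit, per the labels' protocols. The authors deposited 1 table per group with estimated counts per transcript, per the file headers, and the saline values are of the same kind after a stray line-end character was stripped. All 55767 values of each of the 9 columns were whole numbers of at least 0, so no rounding was needed. Values from 6 to 40 fell on multiples of 4 more often (14795 times) than on any other remainder (12507 to 13272 times), and 1 fragment may be worth about 4 estimated counts. The submitters' processing notes name Bowtie 0.12.2 and mm8, which is a build of the mouse, although the tables list rat RefSeq transcripts. How reads were counted, against which annotation and whether by strand is not given in the sources used here. Each table holds a single group, so processing of a table and group cannot be told apart. NaBu columns carry the numbers 2, 4 and 6 and were tied to the group only. The series' design text describes another experiment, and the groups were taken from the sample labels.

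Transcripts were summed by gene name into 22608 genes. The quasi-likelihood test of edgeR 4.0.16 was fitted in R 4.3.3 to all 9 libraries after filterByExpr and TMM scaling (factors 0.887 to 1.14), which left 15467 genes and a common biological coefficient of variation of 0.256. Genes with a Benjamini-Hochberg adjusted p under 0.05 over all tested genes were called, and "rose" and "fell" are used of these. A prior count of 0.125 entered the log2 fold changes, and the standard error (SE) is the size of the log2 fold change over the square root of F. CPM values are relative to the TMM-scaled total, with mean ± SD over 3 libraries. Transcript shares were compared with an exact permutation test. The code was tested on simulated counts. Alternatives were other scalings, DESeq2 1.42.0, no filter on low counts, 2 groups per fit, values divided by 4, the highest transcript of each gene, a replicate block, and libraries left out.

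The members and the gene lists were chosen with earlier results of these data known. Named are all members and, among the other genes of each pathway list, the called genes, or where there were none the gene at each end of the log2 fold changes, with a mean of at least 5 CPM and at least 12 estimated counts in every library; the limits to 1 gene at each end and to 12 counts were set after the values were seen. Prdx4 is named as a peroxiredoxin outside the members, after its values were seen. Marker genes are named where called, and some uncalled ones where they show what weighs in a list's sum. Estimated counts are not independent molecules, so no counting interval is given.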

Additional observations from a re-analysis of the deposited data

How the results depend on the processing

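The 10 members' fitted values were recomputed under 18 alternatives in the NaBu comparisons and 19 for Ang II against saline, and 460 of the values kept their sign and their side of the threshold, while 23 gained a call, 36 lost one and 31 changed sign. The cause of these changes was not tested.

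All genes called for Ang II against saline were 57 with DESeq2 (0 with edgeR), 1 with only the 2 groups in the fit, 3 with the highest transcript, 11 with saline replicates 2 and 3 both left out, and 0 to 7 with single libraries left out. Leaving out saline replicates 2 and 3 keeps 1 saline library, which is then assumed to vary like the other groups. For NaBu against Ang II the 248 calls became 4 with total count scaling, 1521 with DESeq2, 1802 with only the 2 groups, 5 with the highest transcript, 1695 with saline replicates 2 and 3 left out, and 1 to 1482 with single libraries left out. For NaBu against saline the 782 calls became 411, 2007, 9, 21, 109 and 6 to 1303 under the same settings. Members called for NaBu against Ang II (0) became 4 with DESeq2, 5 with only the 2 groups, 5 without saline replicates 2 and 3, and 0 to 5 with single libraries left out, the 5 without saline replicate 2; without saline replicate 3 only Prdx6 was called. Members called for NaBu against saline (3) became 1 with total count scaling, 5 with DESeq2 (Gpx4 and Prdx6 in addition), 2 with no filter, 2 with upper-quartile scaling, 0 with only the 2 groups, 0 with the highest transcript, 0 without saline replicates 2 and 3, and 0 to 3 with single libraries left out. Gpx1 and Prdx1 were called without saline replicate 3 (with Prdx6) or Ang II replicate 1, and no member was called without any other single library.

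For Ang II against saline without saline replicates 2 and 3, the log2 fold changes were -0.06 for Prdx1, -0.10 for Prdx2, -0.16 for Prdx3, -0.16 for Prdx5, 0.09 for Prdx6, 0.27 for Gpx3, -0.02 for Gpx4, -0.02 for Txnrd1, -0.21 for Gstt2 and 0.04 for Tkt. Prdx6 was 0.02 with total count scaling and Eefsec 0.04 with the highest transcript. Gpx3 for NaBu against Ang II was -0.03 with upper-quartile scaling, -0.10 with total count scaling and -0.01 with the highest transcript. For NaBu against saline without saline replicates 2 and 3, Gpx3 was 0.28, Gpx7 0.01 and Mgst1 0.54. With single libraries left out, values for Ang II against saline ran from -0.01 to 0.21 for Prdx1, -0.13 to 0.14 for Prdx2, -0.13 to 0.26 for Prdx3, -0.16 to 0.15 for Prdx5, -0.15 to 0.13 for Prdx6, -0.61 to 0.07 for Gpx3 and -0.02 to 0.24 for Gpx4. For NaBu against Ang II they ran from -0.06 to 0.07 for Gpx3, -0.12 to 0.10 for Srxn1 and -0.23 to 0.16 for Gpx7, and for NaBu against saline from -0.60 to 0.09 for Gpx3 and -0.55 to 0.10 for Mgst1. Total count scaling moved the median of all genes to -0.133 (NaBu against Ang II) and -0.109 (against saline).

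Saline and Ang II share the replicate numbers 1, 2 and 3. The deviations of same-numbered libraries correlated at -0.00413, -0.0328 and 0.0078, and those of other pairs at -0.0262 to 0.0289. These values cannot show whether the samples were paired, because the labels do not say what the numbers stand for. With the replicate number as a block, 0 members and 0 of all genes were called, as without it. No paired fit with NaBu was possible because its columns carry other numbers.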

Other observations

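Selenbp1, a selenium-binding protein that is not a selenoprotein, was named after its values were seen. It was at 0.06 CPM in saline replicate 1, 0.0602 in Ang II replicate 1, 0.0231 in Ang II replicate 3 and 0.0274 in NaBu replicate 2. In the other 5 libraries it was at 17.4, 19.7, 20.8, 21.9 and 23.1 CPM, with no value in between. Both levels occurred in each of the 3 groups, so it did not separate them, and the cause was not tested.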
